A study of Mus musculus with 6 samples.

Results

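Collagen genes were examined in 6 RNA sequencing libraries of the mouse fibroblast line NIH3T3. They were taken as the protein-coding mouse genes whose symbol has the form Col, number, a, number, which gave 42 of the 24938 genes in each file. Another 2 genes of that form, Col25a1 and Col26a1, were not analysed here. F-CircAE, a circular RNA tied to the leukaemia fusion gene AML1-ETO, was overexpressed in the cells of 3 libraries, and the cells of the other 3 are labelled wild type. The titles of the wild type samples begin with V, a letter the labels do not explain, so whether these cells carried an empty vector is not known. On these labels the circular RNA and the procedure used to overexpress it cannot be told apart. Whether each library is a culture of its own is not stated in the labels, and p-values therefore describe the variation among these 6 libraries, part or all of which may be technical. F-CircAE levels were not analysed here.

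Collagens are secreted or membrane-bound proteins in which 3 chains wind into a shared helix built on repeats of glycine and 2 further residues. Fibrillar types (I, II, III, V, XI, XXIV and XXVII) build fibrils, type IV builds the sheet of basement membranes, type VI builds beaded microfilaments, and types VIII and X build hexagonal networks. FACIT collagens, the fibril-associated types with interrupted helices, decorate fibrils. Transmembrane types span the cell membrane, multiplexins lie near basement membranes, and type VII forms anchoring fibrils below epithelia. Fibroblasts are known as the main makers of types I, III, V and VI.

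The bases just before the start of 5 fibrillar genes of types III, V and XI are shown, because these types hold the largest, the smallest and the best separated group differences of their class described below. Each is the 250 bases before the RefSeq start (GRCm38.p6), 5′ to 3′ on the gene's strand, and none overlaps an annotated exon. The windows lie at chr1:45311288-45311537 (plus strand) for Col3a1, chr2:27886175-27886424 (plus) for Col5a1, chr9:20815068-20815317 (minus) for Col5a3, chr3:114030290-114030539 (plus) for Col11a1 and chr17:34038888-34039137 (plus) for Col11a2. Capitals mark, on either strand, the GC box GGGCGG, the CCAAT box CCAAT and the TATA motif TATAA.
Col3a1: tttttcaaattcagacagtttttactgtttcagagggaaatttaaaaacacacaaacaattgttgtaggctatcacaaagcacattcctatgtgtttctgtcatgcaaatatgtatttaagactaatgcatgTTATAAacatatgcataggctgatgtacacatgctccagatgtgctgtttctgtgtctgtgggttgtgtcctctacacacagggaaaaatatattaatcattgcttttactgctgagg
Col5a1: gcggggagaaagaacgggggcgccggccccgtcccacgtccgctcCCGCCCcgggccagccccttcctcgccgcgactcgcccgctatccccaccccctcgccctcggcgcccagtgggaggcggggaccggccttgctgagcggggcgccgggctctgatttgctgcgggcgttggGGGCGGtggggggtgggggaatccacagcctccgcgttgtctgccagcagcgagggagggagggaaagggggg
Col5a3: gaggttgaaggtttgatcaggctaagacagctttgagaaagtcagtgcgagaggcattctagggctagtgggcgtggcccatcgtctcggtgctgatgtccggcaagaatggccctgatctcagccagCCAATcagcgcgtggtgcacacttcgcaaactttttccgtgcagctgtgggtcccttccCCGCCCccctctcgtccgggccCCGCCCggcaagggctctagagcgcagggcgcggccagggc
Col11a1: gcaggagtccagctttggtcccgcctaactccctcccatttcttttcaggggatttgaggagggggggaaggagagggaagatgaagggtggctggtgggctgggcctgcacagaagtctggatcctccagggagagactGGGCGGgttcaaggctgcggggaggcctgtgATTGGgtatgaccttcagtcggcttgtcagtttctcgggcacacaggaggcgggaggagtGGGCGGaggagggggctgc
Col11a2: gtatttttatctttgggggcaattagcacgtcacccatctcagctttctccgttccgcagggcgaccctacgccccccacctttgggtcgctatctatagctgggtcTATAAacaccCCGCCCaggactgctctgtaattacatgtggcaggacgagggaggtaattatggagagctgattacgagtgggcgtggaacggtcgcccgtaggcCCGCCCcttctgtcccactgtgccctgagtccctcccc
The GC box was found in the windows of Col5a1, Col5a3, Col11a1 and Col11a2 and not in that of Col3a1. The CCAAT box was found in those of Col5a3 and Col11a1. The TATA motif was found in that of Col11a2, 143 bases before the start, and in that of Col3a1, where a palindrome gives overlapping matches on both strands 117 and 118 bases before it. Among all 32851 RefSeq windows of this length, 32.7% held the GC box, 33.8% the CCAAT box and 22.8% the TATA motif. A match describes the letters only. A window was found for 34 of the 42 genes.

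Values are FPKM, reads scaled by the authors to gene length and library size. Recovered reads numbered 16938722 to 21804163 in the F-CircAE libraries and 18967038 to 20897705 in the wild type libraries, of which 229140 to 349753 fell on collagen genes with overexpression and 272087 to 388978 in wild type. Wild type replicates 1 and 2 were far closer to each other than any other pair. Between them the chi-square per gene was 1.46, where counting error alone gives about 1, against 5.17 to 25.2 in the other 14 pairs. Over the tested collagen genes their median absolute difference was 0.013 on the log2(FPKM + 1) scale, against 0.10 to 0.33 in the other pairs. If they share a culture or an RNA, the wild type SDs and the standard errors may be too small. Both were kept and n = 3 in each group. All 9 fibroblast markers averaged at least 1 FPKM (Vim, Fn1 and Pdgfra among them), as did 2 of 5 epithelial markers (Cdh1 and Krt14), 1 of 4 of cartilage (Sox9), 1 of 3 of muscle (Des) and 0 of 3 each of blood, endothelium, bone and fat. The mouse genes of the fusion's parents, Runx1 and Runx1t1, had log2 fold changes of -0.0041 and -0.0061 (limma adjusted p = 0.998 and 0.996).

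Genes were tested where FPKM was above 1 in at least 3 libraries, which held for 22 of the 42 collagen genes and 12222 genes in all. All 22 exceeded 1 FPKM in libraries of both groups, and 21 did so in every library. Test results are from limma on log2(FPKM + 1), adjusted by Benjamini-Hochberg over the 12222 genes, and fold changes are F-CircAE overexpression minus wild type on that scale, which understates changes of low genes. No collagen gene passed an adjusted p of 0.05, where 0.0% of all tested genes did. At an unadjusted p below 0.05 there were 3 collagen genes in limma and 5 of 28 in limma-voom on recovered reads (against 5.16% of all genes tested there), which called 0 as well. Without wild type replicate 3 there were 9 in limma, against 15.3% of all tested genes. With all libraries in limma, all 3 were lower with overexpression (13.6% of the tested collagens, against 2.31% of all tested genes) and 0 were higher (against 2.86%). The estimate was below 0 for 19 of 22, against 46.8% of all tested genes. That count was 22 when libraries were rescaled to the same FPKM sum, where 67.1% of all tested genes were below 0. There, unadjusted limma p below 0.05 split into 643 lower and 103 higher genes (282 lower and 350 higher without rescaling). Array weights let noisier libraries count less. Under them, with wild type replicates 1 and 2 averaged, 12 of 22 estimates were below 0, against 44.5% of all tested genes. Array weights without that averaging were the one setting that called any collagen, 7 of 22, all lower, against 7.28% of all tested genes. The median log2 fold change was -0.11 over the 22 collagens and 0.0084 over all tested genes. The collagen median was -0.066 without F-CircAE replicate 1, -0.059 without wild type replicate 2 and -0.23 without wild type replicate 3. It was -0.18 after rescaling to the same FPKM sum, -0.073 with wild type replicates 1 and 2 averaged and -0.012 with array weights on that average. The 95% interval lay within a 2-fold change of FPKM + 1 either way for 21 of the 22. In bulk RNA, fewer cells expressing a gene and less RNA per cell cannot be told apart.

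**Figure D1:**
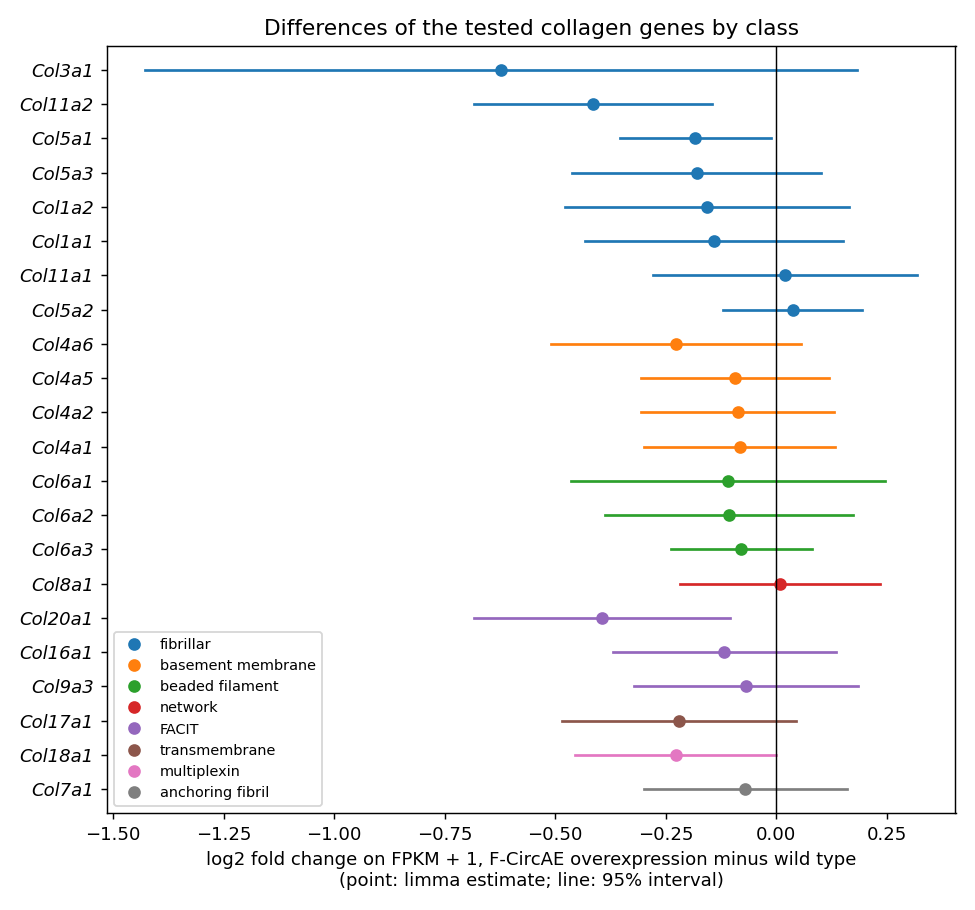
Log2 fold change on FPKM + 1 (F-CircAE overexpression minus wild type, n = 3 each) of the 22 tested collagen genes, coloured by class. Points are limma estimates and lines 95% intervals. Of the estimates 19 lie below 0, and the intervals of Col11a2, Col20a1 and Col5a1 exclude 0 before adjustment for multiple testing.

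Wild type replicates 1 and 2 were the highest libraries for 15 of 22 tested collagens (68.2%, against 15.3% of all tested genes). In 17 of 22 tested collagens (77.3%) all 3 F-CircAE libraries were below both of these, against 17.9% of all tested genes. Wild type replicate 3 lay below both in 18 of 22 (81.8%, against 41.2%), within the F-CircAE range in 12 (54.5%, against 51.7%) and below every F-CircAE library in 5 (22.7%, against 25.7%). The groups were fully apart, with overexpression lower, in 3 of 22 (13.6%, against 4.69% of all tested genes), and with overexpression higher in 0 (against 6.81%). Per library, the median deviation of the 22 genes from their own means was -0.19, -0.031 and -0.033 in F-CircAE replicates 1, 2 and 3, and 0.16, 0.16 and -0.082 in wild type replicates 1, 2 and 3, where all tested genes had medians of -0.0062 to 0.014. Wild type replicate 3 thus stood below F-CircAE replicates 2 and 3. F-CircAE replicate 1 was the lowest of its group in 14 of 22 collagens (63.6%, against 40.6% of all tested genes).

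**Figure D2:**
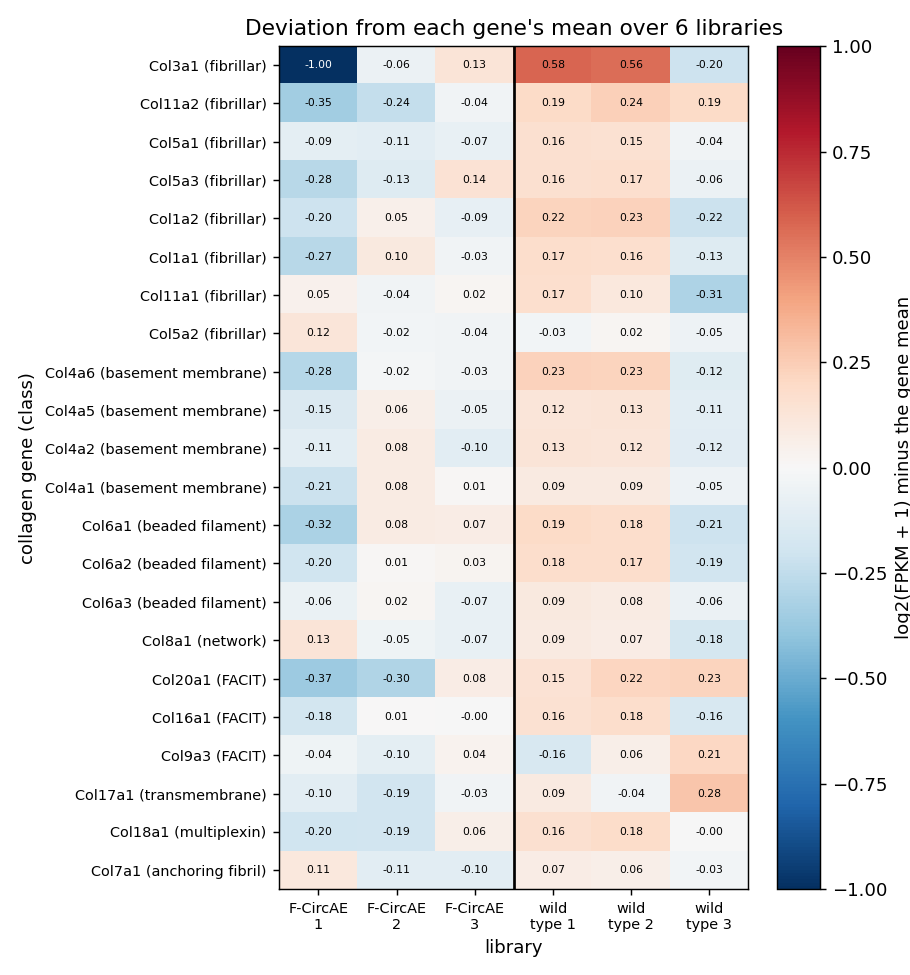
Deviation of each tested collagen gene from its own mean over 6 libraries, in log2(FPKM + 1), with genes in rows by class and libraries in columns. Wild type replicates 1 and 2 are above the gene mean in most rows (their medians are 0.16 each), whereas F-CircAE replicate 1 and wild type replicate 3 are below it (medians -0.19 and -0.082).

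Other measures differed between the same libraries. The summed level of the 9 fibroblast markers was 950.1 to 1169 FPKM in F-CircAE libraries and 1068 to 1290.3 in wild type libraries. Fn1, which encodes fibronectin, had 243, 345 and 343 FPKM in F-CircAE libraries and 541, 537 and 319 in wild type libraries. The summed epithelial markers ran from 7.09 to 8.12 FPKM with overexpression and from 5.95 to 8.81 in wild type, the cartilage markers from 29.0 to 29.8 with overexpression and from 27.8 to 34.3 in wild type. The muscle markers ran from 1.96 to 2.16 FPKM with overexpression and from 2.24 to 2.38 in wild type. Sox9 made up most of the cartilage sum, with 28.8 to 29.7 FPKM with overexpression and 27.6 to 34.0 in wild type. Acan, Comp and Matn1 had at most 0.251 FPKM in any library. Des made up most of the muscle sum, where Myh11 and Ckm had at most 0.0979 FPKM in any library. Endothelial, bone, fat and blood markers summed to at most 1.14 FPKM in any library, and Krt18 was listed at 0 in 5 libraries. Mitochondrial genes took 2.01%, 2.58% and 2.43% of reads in F-CircAE replicates 1 to 3 and 1.87%, 1.87% and 2.38% in wild type replicates 1 to 3. The part of these measures in the collagen values was not tested.

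Fibrillar collagens held 67.9% to 69.4% of all collagen FPKM in F-CircAE libraries and 68.8% to 70.4% in wild type libraries. These shares, and the order of genes by level, depend on the gene lengths behind FPKM. Per length of the principal transcript (APPRIS), Col3a1 averaged 186 and Col6a1 137 over all libraries, in place of 105 and 128 FPKM. The summed level of the fibrillar genes was 1062, 1312 and 1236 FPKM with overexpression and 1477, 1476 and 1139.6 in wild type. Wild type replicate 3 thus fell between F-CircAE libraries. Of 11 fibrillar genes 8 were tested, and 6 estimates were below 0 with a class median of -0.17. The major chain genes of type I, Col1a1 (chromosome 11, 94936224 to 94953042, mm10) and Col1a2 (chromosome 6, 4504814 to 4541544), were the most abundant collagen transcripts per length. Col1a1 had 444, 575 and 525 FPKM in F-CircAE libraries and 607, 602 and 492 in wild type libraries. Col1a2 had 409, 489 and 444 with overexpression and 548, 553 and 405 in wild type. For both genes the groups overlapped through wild type replicate 3. Col1a1 averaged 515 ± 65.9 FPKM with overexpression and 567 ± 65.0 in wild type (SD, n = 3), with a log2 fold change of -0.14, a standard error of 0.12 and a limma adjusted p of 0.850. Col1a2 averaged 447 ± 40.2 FPKM with overexpression and 502 ± 83.8 in wild type (SD, n = 3), with a log2 fold change of -0.16 and the same limma adjusted p of 0.850. Both signs turned positive under array weights with wild type replicates 1 and 2 averaged.

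Col3a1, the single chain of type III collagen (chromosome 1, 45311538 to 45349706), had the largest change of the tested collagens on the log2(FPKM + 1) scale. Col11a2 came before it with a pseudocount of 0.1 (-0.68 for Col11a2 and -0.63 for Col3a1) and in limma-voom (-0.72 and -0.63). Without F-CircAE replicate 1, Col11a2 (-0.34) and Col20a1 (-0.31) came before Col3a1 (-0.28). Under array weights with wild type replicates 1 and 2 averaged, Col20a1 (-0.46), Col11a2 (-0.42) and Col17a1 (-0.32) came before Col3a1 (-0.28). Col3a1 had 48.8, 94.6 and 108 FPKM in F-CircAE libraries and 148, 146 and 85.6 in wild type libraries. F-CircAE replicate 1 was the lowest library, and wild type replicate 3 lay below F-CircAE replicates 2 and 3. Col3a1 averaged 83.8 ± 31.1 FPKM with overexpression and 127 ± 35.5 in wild type (SD, n = 3), and overexpression over wild type was 0.663. The log2 fold change of -0.62 had a 95% interval of -1.43 to 0.18 and did not pass (limma adjusted p = 0.842). Leaving out a single library gave log2 fold changes of -0.88 to -0.28, the smaller without F-CircAE replicate 1. Col5a2, which lies 24614 bases downstream of it on the other strand, did not share this spread.

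Type V collagen is a minor partner of type I that sets fibril diameter. Col5a1 (chromosome 2, 27886425 to 28039514) had 71.6, 71.0 and 72.8 FPKM in F-CircAE libraries and 85.6, 85.2 and 74.6 in wild type libraries. The groups did not overlap, although wild type replicate 3 stood within 2 FPKM of the highest F-CircAE library. Col5a1 averaged 71.8 ± 0.907 FPKM with overexpression and 81.8 ± 6.26 in wild type (SD, n = 3), with a log2 fold change of -0.18, a standard error of 0.07, an unadjusted limma p of 0.0391 and an adjusted p of 0.842. Col5a2, its usual partner chain, had 68.3, 61.7 and 61.2 FPKM with overexpression and 61.6, 63.8 and 60.6 in wild type. Here the highest library was F-CircAE replicate 1, and the 95% interval around its log2 fold change of 0.04 ran from -0.12 to 0.19. Its sign turned negative when libraries were rescaled to the same FPKM sum and under array weights. Col5a3, the third chain gene, had 12.1, 13.5 and 16.6 FPKM with overexpression and 16.8, 16.9 and 14.3 in wild type, which overlapped (log2 fold change -0.18, limma adjusted p = 0.843).

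Type XI collagen is the counterpart of type V, best known from cartilage. Col11a2 (chromosome 17, 34039437 to 34066685) had the smallest p of the tested collagens and a low level. It had 0.873, 1.02 and 1.32 FPKM in F-CircAE libraries and 1.72, 1.82 and 1.72 in wild type libraries, from 101, 150 and 169 recovered reads with overexpression and 240, 265 and 225 in wild type. All 3 wild type libraries, replicate 3 included, were above all F-CircAE libraries. Col11a2 averaged 1.07 ± 0.23 FPKM with overexpression and 1.75 ± 0.056 in wild type (SD, n = 3), 0.613 of the wild type level, with a log2 fold change of -0.41, a standard error of 0.11, an unadjusted limma p of 0.00824 and an adjusted p of 0.842. Leave-one-out values ran from -0.50 to -0.34. Col11a1 was higher in level, with 6.50, 6.08 and 6.37 FPKM with overexpression and 7.18, 6.81 and 4.87 in wild type. Wild type replicates 1 and 2 lay above and replicate 3 below all F-CircAE libraries, and the log2 fold change was 0.02, of a sign that turned negative on rescaling to the same FPKM sum and under array weights.

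**Figure D3:**
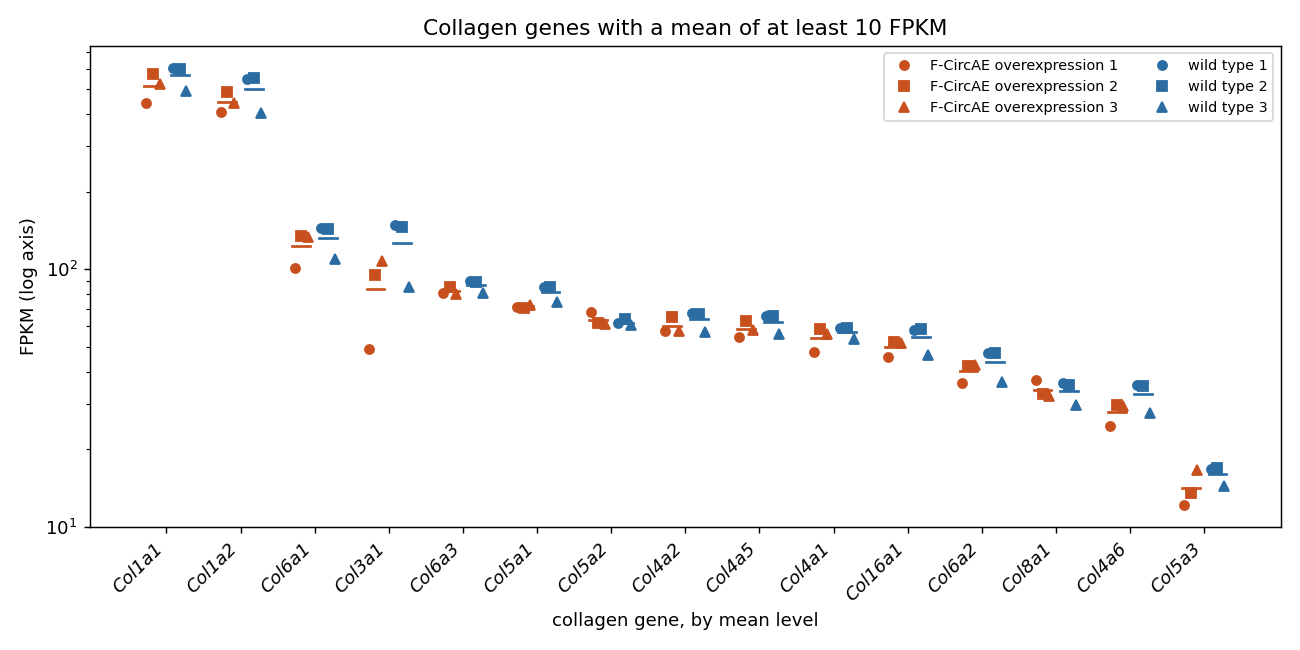
FPKM on a log axis of the 15 collagen genes with a mean of at least 10 FPKM, in order of mean FPKM. The order depends on the gene lengths behind FPKM. Symbols are single libraries of F-CircAE overexpression (left) and wild type (right), and short lines are group means. Wild type replicate 3 (triangles) sits below wild type replicates 1 and 2 for each gene, and Col3a1 has the widest spread, from 48.8 to 148 FPKM.

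Basement membrane collagen of type IV was expressed from 2 of its 3 gene pairs. Each pair lies head to head on a chromosome, Col4a1 with Col4a2 on chromosome 8, Col4a5 with Col4a6 on chromosome X and Col4a3 with Col4a4 on chromosome 1. The annotated genes overlap by 22 bases in the first pair, and 1308 and 71 bases separate the others. Col4a1 had 47.8, 58.7 and 56.0 FPKM in F-CircAE libraries and 59.2, 59.0 and 53.5 in wild type libraries. Col4a2 had 57.3, 65.2 and 57.4 with overexpression and 67.6, 67.1 and 56.9 in wild type. Both overlapped between groups, and the log2 fold changes were -0.08 and -0.09 (limma adjusted p = 0.875 and 0.869). Col4a5 had 54.5, 63.1 and 58.1 FPKM with overexpression and 65.7, 66.1 and 56.1 in wild type, and a log2 fold change of -0.09. Col4a6 had 24.5, 29.5 and 29.4 with overexpression and 35.5, 35.3 and 27.6 in wild type. Its log2 fold change of -0.23, with a 95% interval of -0.51 to 0.06, did not pass (limma adjusted p = 0.842), and wild type replicate 3 lay inside the F-CircAE range. Col4a3 and Col4a4, chains best known from the glomerular basement membrane, had at most 0.16 and 0.078 FPKM in any library. Exons of Col4a3 overlap those of C430014B12Rik on the other strand over 5.65% of their length, so part of its few reads cannot be told apart.

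Type VI collagen links cells to the matrix around them, and Col6a1, Col6a2 and Col6a3 encode the chains of its classical trimer. Col6a1 had 101, 134 and 133 FPKM in F-CircAE libraries and 145, 143 and 109.7 in wild type libraries. Col6a2, 85161 bases away on the same strand of chromosome 10, had 36.2, 42.0 and 42.6 FPKM with overexpression and 47.3, 47.2 and 36.4 in wild type. Col6a3 on chromosome 1 had 80.6, 85.2 and 80.2 with overexpression and 90.0, 89.2 and 80.9 in wild type. In all 3 genes wild type replicates 1 and 2 were the highest libraries and replicate 3 lay within the F-CircAE range. The log2 fold changes were -0.11, -0.11 and -0.08 (limma adjusted p = 0.891, 0.876 and 0.850). Col6a4, Col6a5 and Col6a6 reached at most 0.659 FPKM and were not tested. Col6a5 had 28 recovered reads in F-CircAE replicate 1 and 2 to 10 in every other library.

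Col8a1, a network collagen chain of vessel walls and the cornea, was the only tested gene of its class and, with Col5a2 and Col11a1, had an estimate above 0. It had 37.0, 32.6 and 32.0 FPKM in F-CircAE libraries and 36.1, 35.5 and 29.7 in wild type libraries, which overlapped. Its log2 fold change of 0.01 had a 95% interval of -0.22 to 0.23, and the sign turned negative on rescaling to the same FPKM sum and under array weights. Its partner Col8a2 had 5 recovered reads over the F-CircAE libraries and 4 over the wild type libraries, and Col10a1, the collagen of hypertrophic cartilage, had 12 with overexpression and 7 in wild type. No fold is given for these.

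Among the FACIT collagens Col16a1 was abundant and Col9a3 and Col20a1 were low, while the other 6 were not tested. Col16a1 had 45.7, 52.2 and 51.7 FPKM in F-CircAE libraries and 57.9, 58.8 and 46.4 in wild type libraries, and its log2 fold change was -0.12 (adjusted p in limma, 0.850). Col20a1 (chromosome 2, 180986535 to 181018363) had 2.56, 2.73 and 3.84 FPKM with overexpression and 4.09, 4.34 and 4.37 in wild type. Its groups did not overlap, and wild type replicate 3 was its highest library. Col20a1 averaged 3.04 ± 0.697 FPKM with overexpression and 4.27 ± 0.155 in wild type (SD, n = 3), 0.713 of the wild type level, with a log2 fold change of -0.39, a standard error of 0.12, an unadjusted limma p of 0.0146 and an adjusted p of 0.842. A transcript on the same strand, BX649560.1, shares 1.54% of its exon length. Col9a3 had 3.46, 3.28 and 3.71 FPKM with overexpression and 3.09, 3.77 and 4.31 in wild type, with no separation of groups, and 6.07% of its exon length overlaps Tcfl5 on the other strand. Col12a1 and Col14a1, FACIT collagens of tendon and skin, had at most 0.927 and 0.0745 FPKM in any library.

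Transmembrane, multiplexin and anchoring fibril collagens were low. Col17a1, a hemidesmosome protein of epithelia, had 1.63, 1.47 and 1.76 FPKM in F-CircAE libraries and 2.001, 1.75 and 2.43 in wild type libraries, where wild type replicate 2 fell inside the F-CircAE range (log2 fold change -0.22, limma adjusted p = 0.842). The other transmembrane genes, Col13a1 and Col23a1, did not exceed 0.1 FPKM in means. Col18a1, whose cleaved end is endostatin, had 4.003, 4.03 and 4.99 FPKM with overexpression and 5.44, 5.53 and 4.75 in wild type, with a log2 fold change of -0.23 and an unadjusted limma p of 0.0503. Col7a1, which forms the anchoring fibrils, had 2.19, 1.75 and 1.76 FPKM with overexpression and 2.12, 2.10 and 1.90 in wild type, with a log2 fold change of -0.07.

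Of the 20 collagen genes that were not tested, 13 averaged below 0.1 FPKM, and together they took 0.148% to 0.266% of collagen reads in F-CircAE libraries and 0.157% to 0.183% in wild type libraries. The highest value among them was 0.927 FPKM, for Col12a1, beside a lowest tested mean of 1.41 FPKM for Col11a2. In 10 of them some library had at most 3 recovered reads. Col2a1, the fibrillar collagen of cartilage, had 44 reads over the F-CircAE libraries and 45 over the wild type libraries. Col9a2, another cartilage collagen, had 14, 19 and 16 reads with overexpression and 38, 44 and 11 in wild type, where replicate 3 was again the lowest. Groups did not overlap in FPKM, with overexpression higher, for Col24a1 (fibrillar) and Col22a1 (FACIT) only among the 20 (against 3.04% of all 12716 genes not tested). Col24a1 had 7, 4 and 3 reads with overexpression and 2, 3 and 1 in wild type. Col22a1 had 4, 4 and 3 with overexpression and 1, 2 and 3 in wild type. In both genes the groups met at 3 reads, so only the scaling to library size set them apart. The other untested genes were Col27a1 (fibrillar), Col9a1 and Col19a1 (FACIT), Col15a1 (multiplexin) and Col28a1, outside these classes. The highest library of the untested genes was F-CircAE replicate 1 for Col4a3, Col4a4, Col6a5, Col8a2, Col10a1, Col12a1, Col15a1, Col22a1, Col24a1 and Col28a1 and replicate 3 for Col6a4 and Col13a1. It was wild type replicate 1 for Col6a6 and Col9a1, replicate 2 for Col9a2, Col19a1 and Col27a1 and replicate 3 for Col2a1, Col14a1 and Col23a1.

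Ratios between chains that assemble together were described per library, without a test. Col1a1 to Col1a2 was 1.09, 1.18 and 1.18 in FPKM in F-CircAE libraries and 1.11, 1.09 and 1.21 in wild type libraries. Col4a1 to Col4a2 averaged 0.903 ± 0.071 with overexpression and 0.899 ± 0.037 in wild type, and Col6a1 to Col6a2 averaged 3.04 ± 0.213 with overexpression and 3.04 ± 0.026 in wild type (SD, n = 3). Col6a3 to Col6a1 averaged 0.677 ± 0.10 with overexpression and 0.660 ± 0.067 in wild type. These ratios overlapped between groups. Col5a1 to Col5a2 was 1.05, 1.15 and 1.19 with overexpression and 1.39, 1.33 and 1.23 in wild type, where the groups did not overlap. The level of a ratio depended on the length behind FPKM. The length used for Col1a2 was 12426 bases, all its annotated exons joined, beside 5348 bases of its principal transcript, and that of Col1a1 was 6563 beside 5930. Per principal transcript length the Col1a1 to Col1a2 ratio averaged 0.544 over the 6 libraries in place of 1.14, and the Col6a1 to Col6a2 ratio 1.54 in place of 3.04. A change of length multiplies all libraries alike and leaves group differences as they are.

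**Figure D4:**
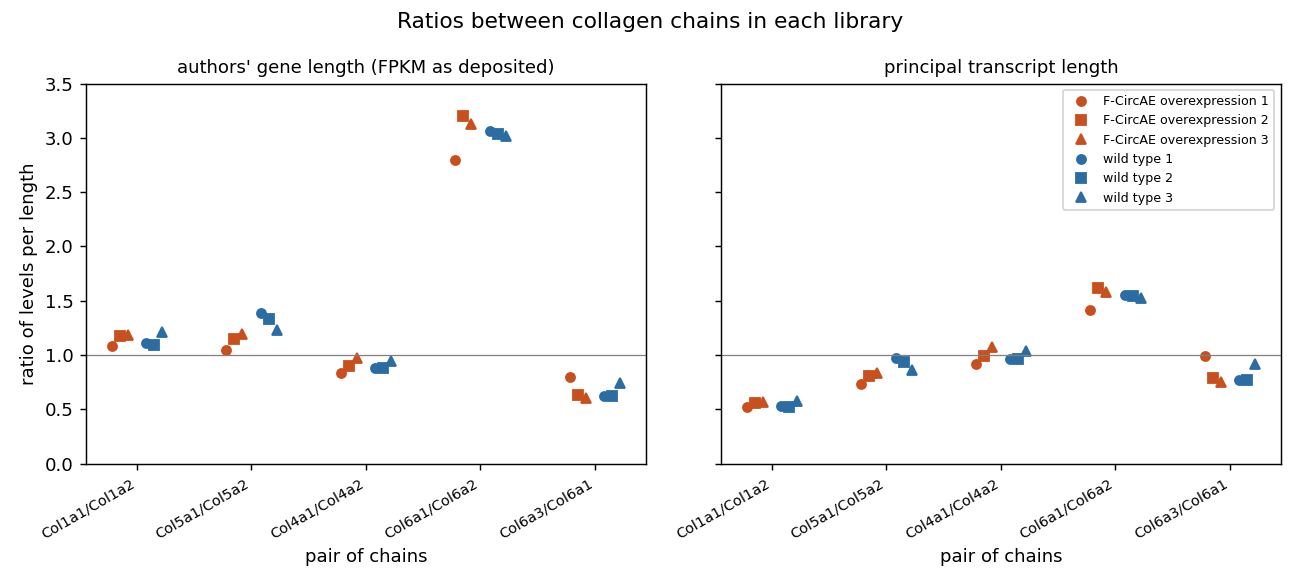
Ratio of the levels per length of 5 pairs of collagen chains in each library, F-CircAE overexpression left of wild type, with the deposited FPKM (left panel) and with the length of the principal transcript (right panel). The mean Col1a1 to Col1a2 ratio is 1.14 in the left panel and 0.544 in the right, and only for Col5a1 to Col5a2 do the groups not overlap.

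Genes that make, process and bind collagen were read from lists. Of 30 genes of collagen synthesis and processing in the files 26 were tested and 0 passed. Of these 26, 2 had an unadjusted limma p below 0.05, both lower, beside 2.31% lower and 2.86% higher of all tested genes. Loxl3, a lysyl oxidase that crosslinks collagen, had 29.9, 30.9 and 33.9 FPKM in F-CircAE libraries and 41.0, 40.2 and 34.9 in wild type libraries (log2 fold change -0.28, limma adjusted p = 0.842). Pcolce, an enhancer of procollagen C-proteinase, had 103.8, 109.7 and 112 with overexpression and 129, 128 and 114 in wild type (log2 fold change -0.18, limma adjusted p = 0.842). Neither overlapped between groups. Fkbp10, a collagen prolyl isomerase, was apart the other way, with 68.1, 67.3 and 66.0 FPKM with overexpression and 60.9, 62.4 and 65.4 in wild type (log2 fold change 0.09, limma adjusted p = 0.843). Groups were thus apart for 2 genes lower and 1 higher of 26, beside 4.69% and 6.81% of all tested genes. The median of this list was -0.03, with 16 of 26 estimates below 0, beside 46.8% of all tested genes. Serpinh1, the collagen chaperone HSP47, had 386, 369.6 and 369 FPKM with overexpression and 343, 348 and 405 in wild type, and its highest library was wild type replicate 3, one of the libraries in which most collagens were low. Of 10 collagen receptor and uptake genes in the files 6 were tested and 0 passed, with 0 at an unadjusted limma p below 0.05 and a median of -0.07. Ddr2, a receptor kinase for fibrillar collagen, had 44.1, 49.9 and 49.3 FPKM with overexpression and 55.3, 54.3 and 45.7 in wild type. Mrc2, an endocytic collagen receptor, had 28.3, 31.4 and 29.4 with overexpression and 39.1, 40.2 and 25.4 in wild type. For both receptors wild type replicates 1 and 2 were the highest libraries, as for 15 of the 22 tested collagens and 15.3% of all tested genes. Among the other tested genes of this list, Itga1 and Itga10 were alike in this. Itgb1 was highest in F-CircAE replicate 1 and Ddr1 in wild type replicate 3.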

How the data were processed

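RNA was treated with DNase I and made into libraries with the NEBNext Ultra RNA kit for paired-end Illumina HiSeq reads, per the labels' protocols. The build was mm10, per the submitters' processing notes. The aligner, counter, strand setting and annotation were not given in the sources used here. The deposited files hold FPKM per Ensembl gene, per the file headers. Symbols, exons and principal transcripts (APPRIS) came from GENCODE M21 on mm10, which named 24816 of 24938 genes.

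Whole reads were recovered from the FPKM steps within 0.01 reads plus a relative 2e-08, at the annotated exon length for 19832 genes (79.5%), 33 collagens among them. For 4908 others, with 9 collagens, the smallest length that gave whole reads was used, which is no independent check, and for 198 genes none was found. Reads cover counting error only. The product of recovered total and library step was 0.975 to 1.01 of what FPKM per recovered total would give.

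Group differences of log2(FPKM + 1) over all 6 libraries were fitted in limma 3.58.1 (R 4.3.3) without covariates, using eBayes with trend and robust set, where at least 3 libraries had FPKM above 1. The Benjamini-Hochberg threshold was 0.05. The fit was also run on simulated data with independent noise for each gene and library. That run does not cover deviations shared across genes of a library, nor the closeness of wild type replicates 1 and 2. The smallest exact two-sided permutation p for 3 against 3 libraries is 0.1, so no such test was run for single values. Deviations of same-numbered libraries from their group means had correlations of -0.10, 0.083 and 0.0025, and replicate numbers were not treated as pairs. Because wild type replicates 1 and 2 were so close, these correlations can hardly tell their numbers apart and do not settle whether libraries were paired. Alternatives were pseudocounts of 0.1 and 5, no filter, a filter at a mean of 5 FPKM, a replicate block, leaving out each library, rescaling to the same FPKM sum, averaging wild type replicates 1 and 2, and limma-voom on genes with at least 20 recovered reads on average. Array weights, with and without that averaging, and the principal transcript length were added after seeing the data.

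The members, lists and tests were chosen with earlier results of these data known. All tested collagens were named, with values per library for those of at least 10 FPKM on average, with groups that did not overlap or with an unadjusted p below 0.05. Of each list the 2 genes with the smallest p were named. Values of the other tested collagens, of Fn1, Fkbp10 and Serpinh1, and the highest libraries of the other tested receptor genes, were given after they were seen.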

Additional observations from a re-analysis of the deposited data

How the results depend on the processing

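No collagen gene was called under any setting except array weights, which called 7 of 22, all lower with overexpression (Col5a1, Col11a2, Col20a1, Col18a1, Col4a6, Col5a3 and Col3a1, limma adjusted p of 0.021 to 0.049), beside 890 lower calls among all tested genes (7.28%). Array weights also called 2241 of all 12222 tested genes, 1351 higher and 890 lower. Of the listed genes, with 26 tested for synthesis and processing and 6 for receptors and uptake, they called 11. They gave F-CircAE replicate 1 and wild type replicate 3 weights of 0.278 and 0.236. With wild type replicates 1 and 2 averaged they called 0 collagens. Leaving out each library gave 0 to 2 calls over all genes and 0 collagens, with 9 collagens at an unadjusted p below 0.05 without wild type replicate 3, where 1870 of 12222 genes were. With the replicate block 0 genes were called and 444 had an unadjusted p below 0.05, against 632 without it, and 0 of 3 F-CircAE libraries correlated best with its own number. The pairing is a shared number only, and these correlations can hardly tell wild type replicates 1 and 2 apart.

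Of 346 recomputed collagen fold changes 326 kept their direction, and 11 genes had a reversal. The changed filters and the replicate block leave each fold change as it was, so their values kept direction by construction. The count of 326 includes them and is no measure of robustness. Rescaling to the same FPKM sum turned Col11a1 to -0.036, Col5a2 to -0.026 and Col8a1 to -0.054, and array weights turned them to -0.14, -0.016 and -0.11. Array weights with wild type replicates 1 and 2 averaged turned Col1a1 to 0.038, Col1a2 to 0.017, Col4a1 to 0.036, Col4a2 to 0.042, Col4a5 to 0.025, Col6a1 to 0.069 and Col6a2 to 0.0072. Leaving out single libraries gave -0.13 to 0.11 for Col11a1, -0.013 to 0.066 for Col5a2, -0.078 to 0.058 for Col8a1, -0.14 to 0.0039 for Col4a1, -0.24 to 0.023 for Col6a1 and -0.17 to 0.020 for Col9a3. Principal transcript lengths gave mean ratios of 0.544 for Col1a1 to Col1a2 (1.14 in FPKM), 0.854 for Col5a1 to Col5a2 (1.22), 0.989 for Col4a1 to Col4a2 (0.901), 1.54 for Col6a1 to Col6a2 (3.04) and 0.832 for Col6a3 to Col6a1 (0.669), by construction. The cause of the other changes was not tested.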

Other observations

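The level of type III relative to type I collagen, a pair chosen after the values were seen, varied between libraries. Relative to its mean, this ratio varied more than those of partner chains. Its SD over the 6 libraries was 0.051 at a mean of 0.190, against 0.078 at 0.669 for Col6a3 to Col6a1. Col3a1 to Col1a1 was 0.110, 0.165 and 0.206 in FPKM in F-CircAE libraries and 0.244, 0.242 and 0.174 in wild type libraries. Wild type replicate 3 lay inside the F-CircAE range. The difference was not tested.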
